A study of Homo sapiens with 8 samples.

Results

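The lysosome and V-ATPase genes are 46 genes that were taken by symbol from a fixed list of lysosomal membrane, hydrolase and proton pump genes together with TFEB and TFE3. All 46 symbols were matched to an Ensembl identifier, out of 60668 gene rows per library. The rule names the genes and uses no measured value, but it was written with earlier results of these data known. They were followed in D283-OMO cells, a pool of hygromycin-selected D283 Med medulloblastoma cells carrying a lentiviral, doxycycline (DOX)-inducible, Flag-tagged OMOMYC transgene, OMOMYC being a MYC mutant that interferes with the activity of MYC. RNA-Seq libraries of polyA+ RNA were made from 4 untreated replicates (OMO) and from 4 replicates treated with DOX for 72 h (OMO+DOX), which the study's methods describe as independent biological replicates. The untreated cells carry the transgene without the inducer, and no DOX-treated line lacking the transgene is among these libraries, so that an effect of DOX alone and an effect of OMOMYC cannot be told apart.

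Lysosomes are acidic organelles in which proteases, glycosidases and lipases degrade material delivered by endocytosis and autophagy. Their acidity is kept by the V-ATPase, a rotary proton pump with a cytosolic V1 sector that hydrolyses ATP and a membrane-embedded V0 sector that carries protons. Many lysosomal genes can be activated together by the MiT/TFE factors (TFEB, TFE3, MITF and TFEC), which bind an extended E-box known as the CLEAR element, whereas MYC with its partner MAX binds E-boxes of the core CACGTG.

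Total counts per library ranged from 38390696 to 54020506, and 3 counts, taken as the floor of detection, corresponded to between 0.0555 and 0.0781 CPM, the count of a gene scaled to a library of 1e+06 counts. MYC stood at 939 ± 75.6 CPM (SD, n = 4) in untreated and 1123 ± 56.8 CPM (SD, n = 4) in DOX-treated cells, and counts per gene do not separate MYC from the transgene derived from it. Of its known targets, CAD and NCL were lower with DOX, with a log2 fold change (log2FC) of -0.48 and -0.44. All 8 markers of Group 3 medulloblastoma were expressed, and their summed level was between 3438 and 3511 CPM in untreated and between 1779 and 1920 CPM in DOX-treated libraries. OTX2, IMPG2, NPR3, NRL, CRX and PALMD were called lower, and MYC and EYS higher. Summed neuronal lineage markers, with 5 of 7 above the filter and ELAVL4 at 0, lay between 167 and 175 CPM against between 76.1 and 81.7 CPM, although TUBB3 was higher (log2FC 0.73). Macrophage and microglia markers, cells that are rich in lysosomes, summed to between 0.762 and 0.996 CPM in untreated and between 0.925 and 1.14 CPM in DOX-treated libraries, with 0 of 7 above the filter and CD163 at 0 in every library. Fibroblast markers, with 2 of 6 above the filter, summed to between 23.6 and 24.6 CPM against between 22.5 and 27.1 CPM. Most of this sum was COL1A1 (means 22.1 and 23.4 CPM), which was not called, while PDGFRA was higher (log2FC 0.54). Below the filter, COL1A2, DCN and LUM were lower on average with DOX and COL3A1 was higher. Endothelial markers, with 3 of 5 above the filter, summed to between 3.58 and 4.47 CPM against between 5.48 and 6.31 CPM, with KDR and CDH5 higher and VWF lower. The share of counts from mitochondrial genes was between 4.73% and 5.13% in untreated and between 5.70% and 5.95% in DOX-treated libraries. The part of these shifts in the results that follow was not tested. In RNA from a cell culture, fewer cells of a kind and less RNA per cell cannot be told apart.

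Untreated replicate 3 and DOX-treated replicate 2 most often held the extreme value of their groups. Untreated replicate 3 gave the highest or the lowest value of the 4 untreated libraries for 37 of 45 tested members (82.2%), and for 77.7% of all genes tested. DOX-treated replicate 2 did so in its group for 33 of 45 members (73.3%), and for 65.7% of all genes tested. Untreated replicate 1 followed with 66.7% of members and 56.1% of all genes, and DOX-treated replicate 4 with 64.4% and 57.7%. With all libraries 32 members were called higher and 7 lower. Without untreated replicate 3 these were 34 and 7, and without DOX-treated replicate 2 they were 33 and 7.

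RNA of the lysosome and V-ATPase genes was more often higher than lower in DOX-treated cells. Of the 46 members, 45 passed the filter of more than 1 CPM in at least 4 libraries, and CTSS did not. A gene was called when its adjusted p by the quasi-likelihood test of edgeR was below 0.05. On this basis 32 of 45 (71.1%) were higher with DOX, where 38.5% of the 15222 genes tested were higher. Another 7 (15.6%) were lower, where 38.1% of all genes were lower, and 6 were not called. The median log2FC of the tested members was 0.38, with values from -0.73 to 3.96, and that of all genes tested was 0.01. With library sizes not corrected for composition, the median of all genes moved to 0.14, and 35 members were called higher and 2 lower. Among all genes tested, too, more were called higher and fewer lower without this correction. The member counts thus moved in the same direction as those of all genes.

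**Figure D1:**
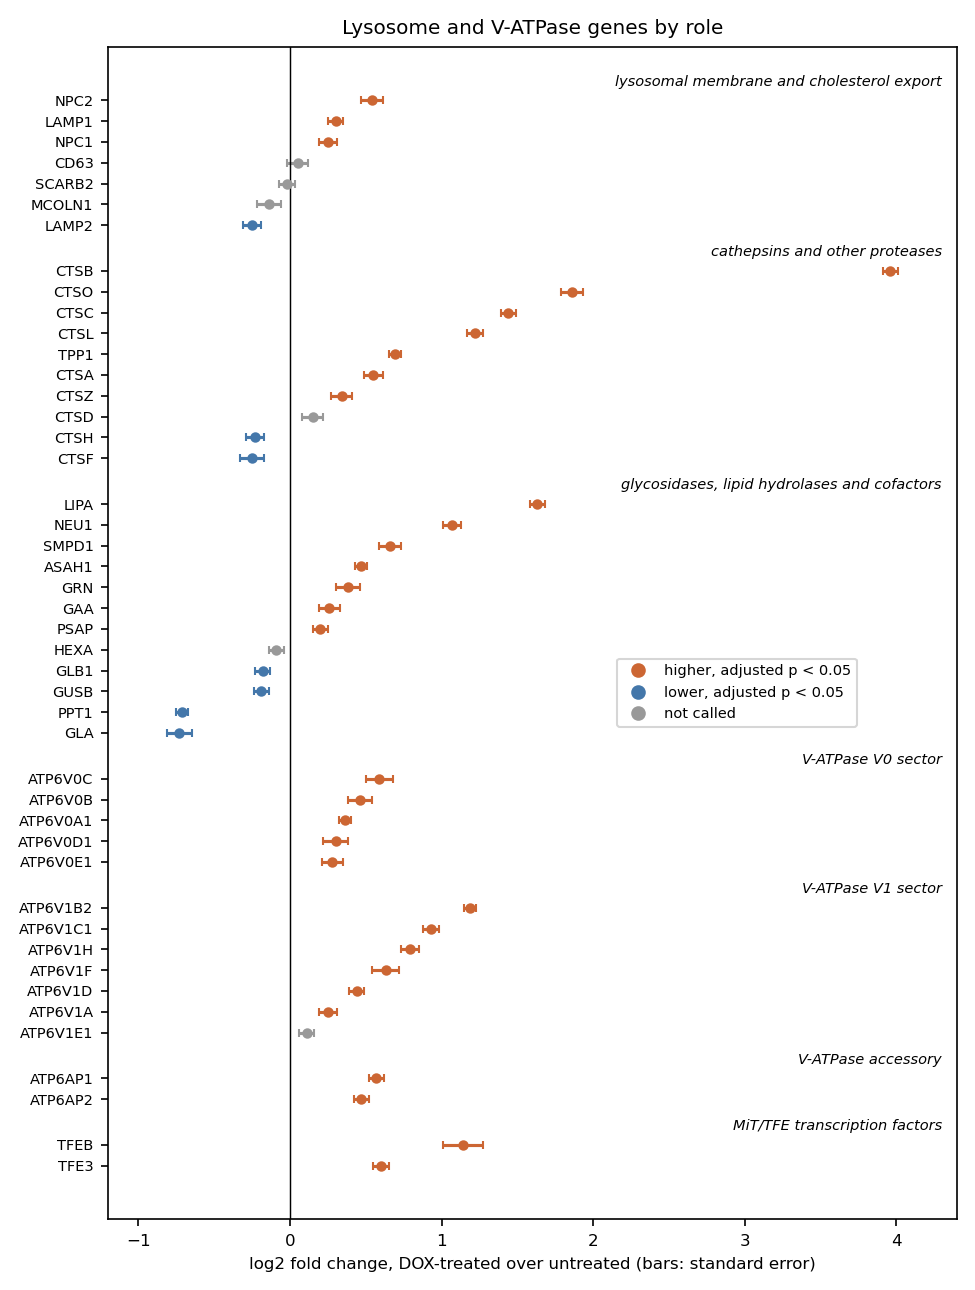
Log2 fold change of DOX-treated over untreated cells (x axis) for the 45 tested members, grouped by role, with the standard error as bars and the call at an adjusted p below 0.05 as colour. All V-ATPase members lie to the right of 0, from 0.11 to 1.19, and the other roles hold members on both sides except for TFEB and TFE3.

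Most changes were small. A log2FC of at least 1 was reached by 8 members (CTSB, CTSO, LIPA, CTSC, CTSL, ATP6V1B2, TFEB and NEU1) among the higher calls, where 11.0% of all genes reached it, and by 0 among the lower calls, where 9.81% did. In 36 of 45 members (80.0%) no library of a group overlapped with the other group, where this held for 71.7% of all genes tested. At the study's own thresholds, an adjusted p below 0.001 and a log2FC above 2, CTSB was the sole member called, where 4.38% of all genes were called higher. Summed over the 46 members, RNA stood at 3212 ± 74.3 CPM (SD, n = 4) in untreated and 5171 ± 93.5 CPM (SD, n = 4) in DOX-treated cells. CTSB made up 2.53% of this sum in untreated and 24.5% in DOX-treated cells. Without CTSB the sums were 3131 ± 71.4 and 3906 ± 63.2 CPM (SD, n = 4 each), a ratio of 1.25.

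Promoter windows of RefSeq (GRCh38.p14), which reach from 250 bases before to 50 bases after a gene's start, were present for 34 of the 46 members. The E-box CACGTG, which reads the same on both strands, occurred in the windows of 10 of these 34 members (29.4%), namely LAMP1, CD63, MCOLN1, CTSA, CTSD, CTSF, GAA, NEU1, ATP6V0B and ATP6V0D1. It was present in 7.26% of all windows of the same length, in those of 8.77% of all genes and in those of 12.7% of the tested genes with a window. The longer form TCACGTGA, which contains the E-box, occurred in 5 members (LAMP1, MCOLN1, CTSA, GAA and ATP6V0D1; 14.7%), and in 2.25% of the tested genes. CACGTG with GT before it and AC after it, which contains both, occurred in GAA and MCOLN1 (5.88%), and in 0.892% of the tested genes. The stretches that hold these E-boxes are shown 5′ to 3′ on the strand of the gene, with the E-boxes in capitals, for the members with the longer forms and for NEU1, the one of the 10 whose log2FC reached 1. They lie at chr13:113297027-113297236 (plus strand) for LAMP1, chr19:7522563-7522623 (plus strand) for MCOLN1, chr17:80101485-80101575 (plus strand) for GAA, chr20:45891273-45891334 (plus strand) for CTSA, chr16:67481191-67481236 (minus strand) for ATP6V0D1 and chr6:31862922-31862967 (minus strand) for NEU1.
LAMP1: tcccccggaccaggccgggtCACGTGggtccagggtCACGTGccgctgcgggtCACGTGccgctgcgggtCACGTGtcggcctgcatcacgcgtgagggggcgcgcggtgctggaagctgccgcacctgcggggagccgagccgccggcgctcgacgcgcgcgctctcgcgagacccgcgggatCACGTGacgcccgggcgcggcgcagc
MCOLN1: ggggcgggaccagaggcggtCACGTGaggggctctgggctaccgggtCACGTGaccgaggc
GAA: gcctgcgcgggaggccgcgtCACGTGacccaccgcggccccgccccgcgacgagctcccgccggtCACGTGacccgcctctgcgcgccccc
CTSA: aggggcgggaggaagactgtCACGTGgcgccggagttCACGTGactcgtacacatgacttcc
ATP6V0D1: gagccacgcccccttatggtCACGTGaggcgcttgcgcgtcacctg
NEU1: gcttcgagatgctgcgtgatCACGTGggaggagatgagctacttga

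The LAMP1 window held 6 E-boxes, of which 5 are shown and the other spans the start itself. The nearest E-boxes of MCOLN1 and GAA began 14 and 31 bases before the start, and that of NEU1 126 bases before it. Of the 10 members with an E-box, 6 were higher, 1 was lower and 3 were not called, with a median log2FC of 0.28. Of the 24 members with a window and no E-box, 17 were higher, 5 were lower and 2 were not called, with a median of 0.45. The 12 members without a window, among them CTSB, CTSO and ATP6V1B2, could not be searched for an E-box. Of the 11 of these that were tested, 9 were higher, 1 was lower and 1 was not called, with a median of 0.47. Of the 5 members with the longer form, LAMP1, CTSA, GAA and ATP6V0D1 were higher, with a log2FC from 0.26 to 0.55, and MCOLN1 was not called. A match of letters describes the sequence and does not show that a factor was bound there.

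The cathepsins, the proteases of the lysosome, held the 2 largest differences among the members, in CTSB and CTSO. Of 10 tested genes for cathepsins and for TPP1, an aminopeptidase, 7 were higher, 2 were lower and 1 was not called, with a median log2FC of 0.62. CTSB (ENSG00000164733.21), the gene of the cysteine protease cathepsin B, spans positions 11842524 to 11869448 of chromosome 8 in GRCh38 (minus strand). It gave 79.0, 82.0, 85.7 and 78.7 CPM in the untreated libraries and 1281, 1229.7, 1230.2 and 1317 CPM in the DOX-treated libraries, from between 49347 and 64996 counts in the latter. The groups were far apart, and CTSB rose 15.5-fold (log2FC 3.96, SE 0.05, adjusted p = 1.28e-13). Per kb of its longest coding transcript, CTSB went from rank 21 of the 46 members at 21.0 CPM per kb to rank 1 at 326 CPM per kb.

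CTSO, which encodes the cysteine protease cathepsin O, was among the lowest members. It gave 4.08, 4.08, 3.62 and 3.83 CPM in untreated and 14.4, 15.0, 14.4 and 13.0 CPM in DOX-treated libraries, and rose 3.64-fold (log2FC 1.86, SE 0.07, adjusted p = 6.73e-10). CTSC encodes cathepsin C, a dipeptidyl peptidase that activates other proteases. Its level was 25.8, 27.2, 26.9 and 26.8 CPM against 72.3, 68.8, 77.3 and 71.9 CPM, a 2.72-fold rise (log2FC 1.44, SE 0.05, adjusted p = 1.7e-10). CTSL encodes cathepsin L, an endopeptidase of the same papain family as cathepsin B. Its level was 12.7, 13.4, 12.7 and 11.7 CPM against 28.2, 28.8, 30.0 and 30.3 CPM, a 2.32-fold rise (log2FC 1.22, SE 0.05, adjusted p = 1.85e-09). In each of these genes every DOX-treated library exceeded every untreated library.

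TPP1 (log2FC 0.69), CTSA (0.55), the protective protein of the sialidase NEU1, and CTSZ (0.34) were higher with smaller differences. CTSA shares 17.7% of its exonic bases with NEURL2 and 3.42% with PLTP on the opposite strand, and PLTP fell from 113 to 91.4 CPM on average. CTSD, the aspartic protease that is abundant in most lysosomes, averaged 102 and 113 CPM and was not called (log2FC 0.15, SE 0.07, adjusted p = 0.0622). It was called higher without untreated replicate 3 (adjusted p = 0.00289) and without DOX-treated replicate 2 (adjusted p = 0.0240). CTSF gave 6.90, 8.01, 8.54 and 7.96 CPM in untreated and 6.41, 6.53, 6.92 and 6.47 CPM in DOX-treated libraries. It was called lower (log2FC -0.25, SE 0.08, adjusted p = 0.0117), although the first untreated library lay within the range of the DOX-treated group. CTSH was lower as well (log2FC -0.23), and neither kept the call when composition was not corrected.

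CTSS, the cathepsin of antigen-presenting cells, was measured by few reads and was not among the genes tested. It gave 0.143, 0.0387, 0.0813 and 0.0448 CPM in untreated libraries, from between 2 and 7 counts, and 0.434, 0.274, 0.411 and 0.308 CPM in DOX-treated libraries, from between 11 and 22 counts. The groups did not overlap, where this held for 71.7% of all genes tested. Without overlap, an exact two-sided permutation test can give only p = 0.0286, the smallest that 4 against 4 libraries allow.

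**Figure D2:**
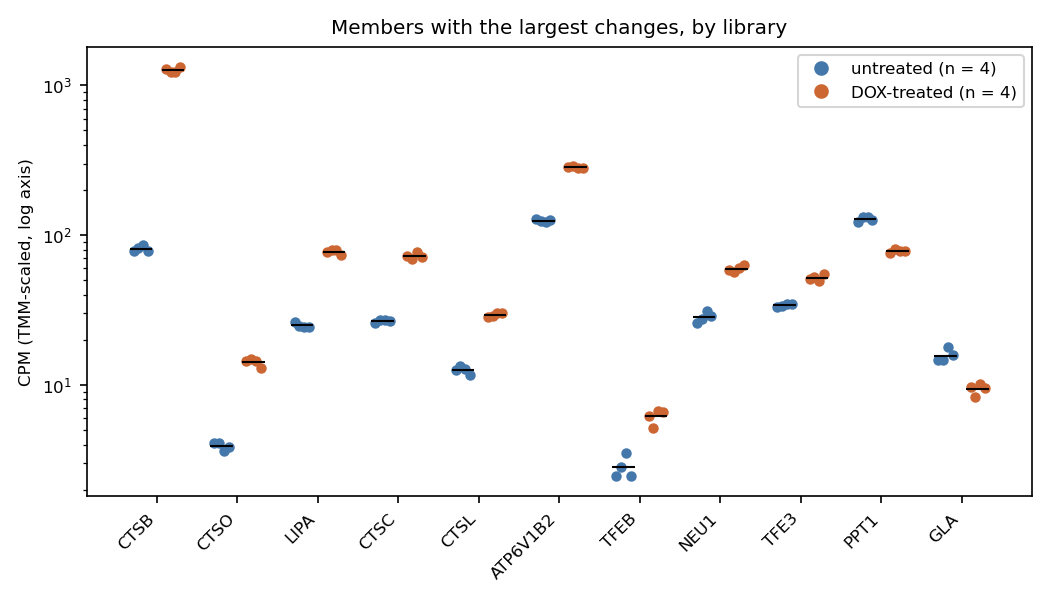
Level in CPM (y axis, log scale) of the 8 members with a log2FC of at least 1 and of TFE3, PPT1 and GLA in each untreated and DOX-treated library (points), with group means as lines. CTSB stands between 1229.7 and 1317 CPM in the 4 DOX-treated libraries, and PPT1 and GLA are the genes shown whose DOX-treated libraries lie below the untreated ones.

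Among 12 genes for glycosidases, lipid hydrolases and their cofactors, 7 were higher, 4 were lower and 1 was not called, with a median log2FC of 0.23. LIPA, which encodes the acid lipase that releases cholesterol from its esters, gave 26.3, 24.8, 24.4 and 24.4 CPM in untreated and 76.8, 79.0, 79.2 and 74.0 CPM in DOX-treated libraries. It rose 3.09-fold (log2FC 1.63, SE 0.05, adjusted p = 4.56e-11). The sialidase gene NEU1, whose promoter stretch with the E-box is among the sequences printed, gave 25.8, 27.7, 31.0 and 28.8 CPM against 58.3, 56.5, 60.3 and 63.3 CPM, a 2.11-fold rise (log2FC 1.07, SE 0.06, adjusted p = 1.69e-08). The groups did not overlap in either gene. SMPD1, the acid sphingomyelinase (log2FC 0.66), ASAH1, the acid ceramidase (0.47), GRN, which encodes progranulin (0.38), and GAA, the acid alpha-glucosidase (0.26), were higher too. PSAP, the precursor of the saposins that assist sphingolipid hydrolases, was the member with the highest level in untreated cells, at 198 CPM per kb, and rose from 569 ± 28.5 to 652 ± 18.2 CPM (SD, n = 4 each; log2FC 0.20, adjusted p = 0.00238).

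Of the 4 genes of this group that fell, GLA and PPT1 had the largest differences. GLA, the alpha-galactosidase, gave 14.7, 14.6, 17.8 and 15.8 CPM in untreated and 9.62, 8.37, 10.1 and 9.60 CPM in DOX-treated libraries, and fell by 0.73 on the log2 scale (SE 0.08, adjusted p = 6.19e-06). PPT1, which removes palmitate from proteins, gave 123, 132, 132 and 126 CPM against 75.6, 81.0, 78.8 and 78.3 CPM, and fell by 0.71 on the log2 scale (SE 0.04, adjusted p = 3.9e-08). In both genes every DOX-treated library lay below every untreated library. PPT1 shares 23.4% of its exonic bases with CAP1 on the opposite strand, which averaged 156 and 143 CPM. GUSB (log2FC -0.19) and GLB1 (-0.18) were called lower with TMM scaling but not when composition was not corrected, and HEXA was not called (log2FC -0.09, adjusted p = 0.0854).

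The 7 members for lysosomal membrane proteins and cholesterol export differed little, with a median log2FC of 0.05, 3 higher, 1 lower and 3 not called. NPC2, the soluble cholesterol carrier of the lysosome lumen, gave 58.2, 61.1, 71.2 and 59.8 CPM in untreated and 85.1, 90.3, 92.4 and 97.2 CPM in DOX-treated libraries (log2FC 0.54, SE 0.07, adjusted p = 1.59e-05). LAMP1 (0.30), an abundant glycoprotein of the membrane, and NPC1 (0.25), which takes cholesterol over from NPC2, were higher as well. LAMP2, the receptor of chaperone-mediated autophagy, gave 167, 153, 140.3 and 162 CPM against 130.4, 141, 125 and 125 CPM. It was called lower (log2FC -0.25, SE 0.06, adjusted p = 0.00291), but untreated replicate 3 and DOX-treated replicate 2 overlapped, and the call was lost when composition was not corrected. The tetraspanin CD63 (log2FC 0.05), the glucocerebrosidase receptor SCARB2 (-0.02) and the calcium channel MCOLN1 (-0.14) were not called. CD63 was called higher, and the SCARB2 estimate turned to 0.11, when composition was not corrected. Together with PSAP, CD63 and SCARB2 had the highest levels per kb in untreated cells, at 115 and 64.0 CPM per kb.

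**Figure D3:**
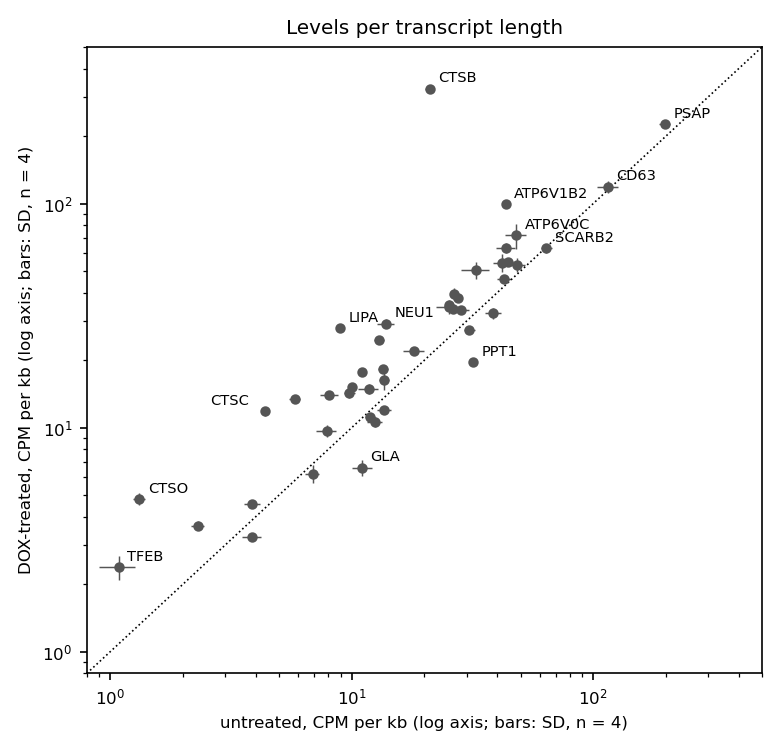
Mean level of the 45 tested members in CPM per kb of the longest coding transcript in untreated (x axis) and DOX-treated cells (y axis), both on log scales, with SD over 4 libraries as bars and equality as the dotted line. CTSB lies farthest from the line, at 21.0 and 326 CPM per kb, and PSAP, CD63 and SCARB2 lie close to it.

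None of the 14 V-ATPase members was called lower, where 38.1% of all genes tested were. Of these members, 13 (92.9%) were higher, where 38.5% of all genes were, and ATP6V1E1 was not called. Their median log2FC was 0.46, with a range from 0.11 to 1.19. Of 7 tested further subunits of the pump that are not members, 4 were higher and 2 were lower. Among the 31 tested members outside the V-ATPase, 19 were higher and 7 were lower, with a median of 0.30. The summed level of the 14 genes was 836.9, 827.5, 849.0 and 831.9 CPM in untreated and 1259.1, 1259.0, 1276.1 and 1286.7 CPM in DOX-treated libraries, a ratio of 1.52. The summed level of every DOX-treated library exceeded that of every untreated library.

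In the V1 sector, ATP6V1B2, an isoform of the B subunit in the ATP-hydrolysing ring, had the largest difference. It gave 127, 124, 123 and 125 CPM in untreated and 287, 291, 282 and 281 CPM in DOX-treated libraries, and rose 2.29-fold (log2FC 1.19, SE 0.04, adjusted p = 1.56e-10). Its level per kb was 43.4 in untreated and 99.2 CPM per kb in DOX-treated cells, where only CTSB, PSAP and CD63 stood higher among the 46. ATP6V1A, the catalytic partner of the B subunit, rose less (log2FC 0.25, adjusted p = 0.00362). ATP6V1C1 and ATP6V1H, subunits that regulate the joining of V1 to V0, rose from 72.8 ± 3.34 to 138 ± 5.52 CPM and from 19.1 ± 1.59 to 33.1 ± 0.699 CPM (SD, n = 4 each; log2FC 0.93 and 0.79). ATP6V1F (0.63) and ATP6V1D (0.44), a part of the rotating stalk, were higher too. ATP6V1F shares 23.7% of its exonic bases with KCP on the opposite strand, which averaged 7.41 and 51.0 CPM, and the part of KCP reads in the ATP6V1F value was not tested. ATP6V1E1, a peripheral stalk subunit, gave 56.9, 59.4, 65.7 and 58.4 CPM against 64.1, 63.0, 65.8 and 66.3 CPM and was not called (log2FC 0.11, adjusted p = 0.0746), while without untreated replicate 3 it was called higher (log2FC 0.15, adjusted p = 0.00349).

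All 5 members of the V0 sector were higher, with a median log2FC of 0.36, where 38.5% of all genes tested were higher. ATP6V0C, the proteolipid that forms most of the proton-carrying ring, gave 52.5, 54.9, 64.9 and 53.8 CPM in untreated and 80.9, 73.6, 85.4 and 99.3 CPM in DOX-treated libraries (log2FC 0.59, SE 0.09, adjusted p = 0.000117). Transcripts annotated under AC093525.2 on the same strand share 57.5% of its exonic bases and averaged 0.106 and 0.0607 CPM. ATP6V0E1 had the smallest difference of the sector, with 24.2, 23.8, 29.3 and 26.4 CPM against 29.9, 32.1, 32.5 and 31.6 CPM (log2FC 0.28, SE 0.07, adjusted p = 0.00244). ATP6V0B (0.46), ATP6V0A1 (0.36) and ATP6V0D1 (0.30) lay between them. The groups did not overlap in any of the 5 genes, where this held for 71.7% of all genes tested.

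The accessory proteins ATP6AP1 and ATP6AP2, which take part in assembly of the pump, were higher as well. ATP6AP1 gave 75.4, 71.7, 78.7 and 74.3 CPM in untreated and 111, 103, 116 and 117 CPM in DOX-treated libraries (log2FC 0.57, SE 0.05, adjusted p = 1.18e-06). ATP6AP2 gave 61.1, 59.7, 60.0 and 56.2 CPM against 79.7, 82.0, 85.8 and 80.6 CPM (log2FC 0.47, SE 0.05, adjusted p = 1.75e-06).

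**Figure D4:**
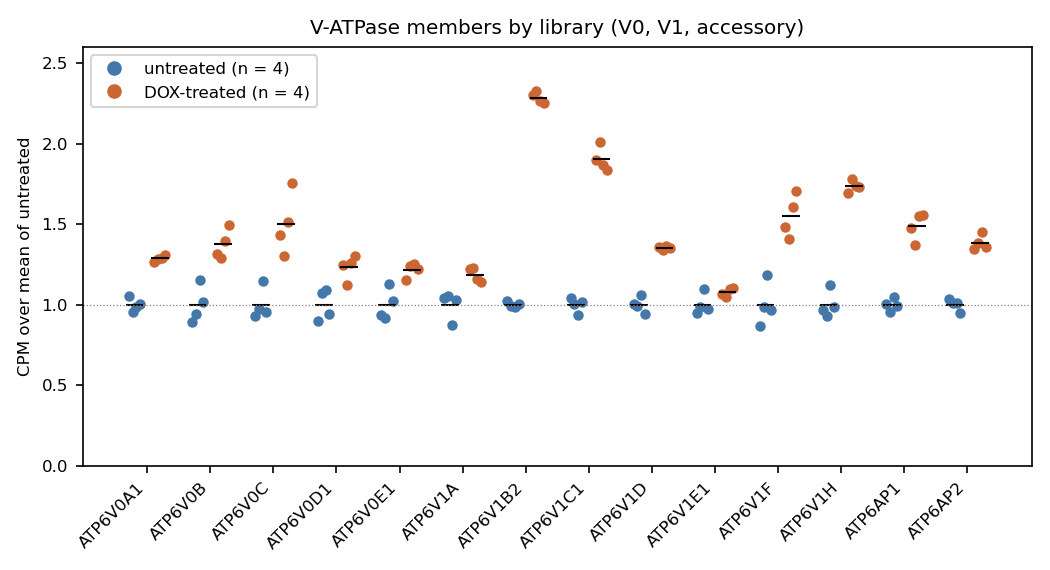
Level of each of the 14 V-ATPase members in each library (points) relative to the mean of the 4 untreated libraries (y axis, starting at 0), with group means as lines. ATP6V1B2 shows the largest rise, 2.29-fold, and ATP6V1E1 is the gene in which the groups overlap.

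Both transcription factor genes among the members were higher. TFEB (ENSG00000112561.18), at positions 41683978 to 41736259 of chromosome 6 (minus strand), gave 2.47, 2.83, 3.50 and 2.47 CPM in untreated and 6.21, 5.13, 6.74 and 6.65 CPM in DOX-treated libraries. The groups did not overlap, and TFEB rose 2.20-fold (log2FC 1.14, SE 0.13, adjusted p = 8.23e-06). Its standard error was the largest among the members, and its libraries held between 110 and 345 counts. TFE3 gave 33.2, 33.7, 34.9 and 34.9 CPM against 51.1, 52.3, 49.5 and 54.9 CPM, a 1.52-fold rise (log2FC 0.60, SE 0.05, adjusted p = 2.26e-07). Of the other factors of this family, MITF was measured at 8.18, 9.58, 7.87 and 9.01 CPM in untreated and 48.1, 50.5, 48.6 and 44.6 CPM in DOX-treated libraries, and rose 5.53-fold (log2FC 2.47, SE 0.07, adjusted p = 3.82e-11). MITF is known as the regulator of pigment cell genes, and among the melanocyte markers DCT fell (log2FC -5.58) while PMEL, MLANA, TYR and TYRP1 lay below the filter. TFEC had 0 counts in every untreated library and at most 2 in a DOX-treated library. These factors are controlled to a large part through their location in the cell, which RNA levels do not measure.

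The remaining genes of the pathway, 156 genes in 9 lists, had a smaller median difference than the members, a contrast that was not tested. Of 139 tested, 73 (52.5%) were higher and 34 (24.5%) were lower, against 38.5% and 38.1% of all genes tested, with a median log2FC of 0.16. The shares called higher in the lists for membrane proteins and for sorting (45.5% each), autophagy (46.7%) and mTORC1 signalling (47.1%) were the closest to that of all genes. Of 7 tested genes for further V-ATPase subunits, 4 were higher and 2 were lower. ATP6V1C2, an isoform of the C subunit, was higher (log2FC 0.77) and shares 29.7% of its exonic bases with PDIA6 on the opposite strand, at 264 and 205 CPM. ATP6V1G2, the neuronal isoform of the G subunit, fell from 23.0 ± 1.30 to 12.4 ± 0.210 CPM (SD, n = 4 each; log2FC -0.89). ATP6V1B1, the other B isoform, and TCIRG1, an isoform of the V0 a subunit, were not above the filter. Of 9 genes for assembly and regulation of the pump, 5 were higher and 4 were lower. They included OXR1, of the TLDc proteins that bind the pump, which rose from 98.5 ± 8.10 to 962 ± 56.5 CPM (SD, n = 4 each; log2FC 3.29), and ROGDI, a component of the assembly complex, which fell from 32.1 ± 3.10 to 12.0 ± 1.34 CPM (log2FC -1.42).

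Of 26 tested further hydrolases and cofactors, 15 were higher and 5 were lower, with a median log2FC of 0.29. FUCA1, the lysosomal alpha-fucosidase, gave 11.1, 10.5, 12.4 and 11.8 CPM in untreated and 395, 411, 424 and 418 CPM in DOX-treated libraries, a 36.0-fold rise (log2FC 5.17, SE 0.06, adjusted p = 1.18e-13). This was larger than the 15.5-fold rise of CTSB, the largest among the members. DNASE2, the acid DNase of lysosomes, fell from 68.8 ± 4.96 to 23.9 ± 2.05 CPM (SD, n = 4 each; log2FC -1.53). Of 22 tested membrane proteins and transporters, 10 were higher and 8 were lower, with a median of 0.05 that equals that of the 7 membrane members. SLC17A5, which exports sialic acid, rose from 10.9 ± 0.303 to 67.4 ± 1.02 CPM (log2FC 2.63), and LAPTM4B fell from 1544 ± 82.8 to 763 ± 18.1 CPM (log2FC -1.02; SD, n = 4 each). CD68, a membrane glycoprotein abundant in macrophages, was below the filter, with group means of 0.144 and 0.427 CPM.

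**Figure D5:**
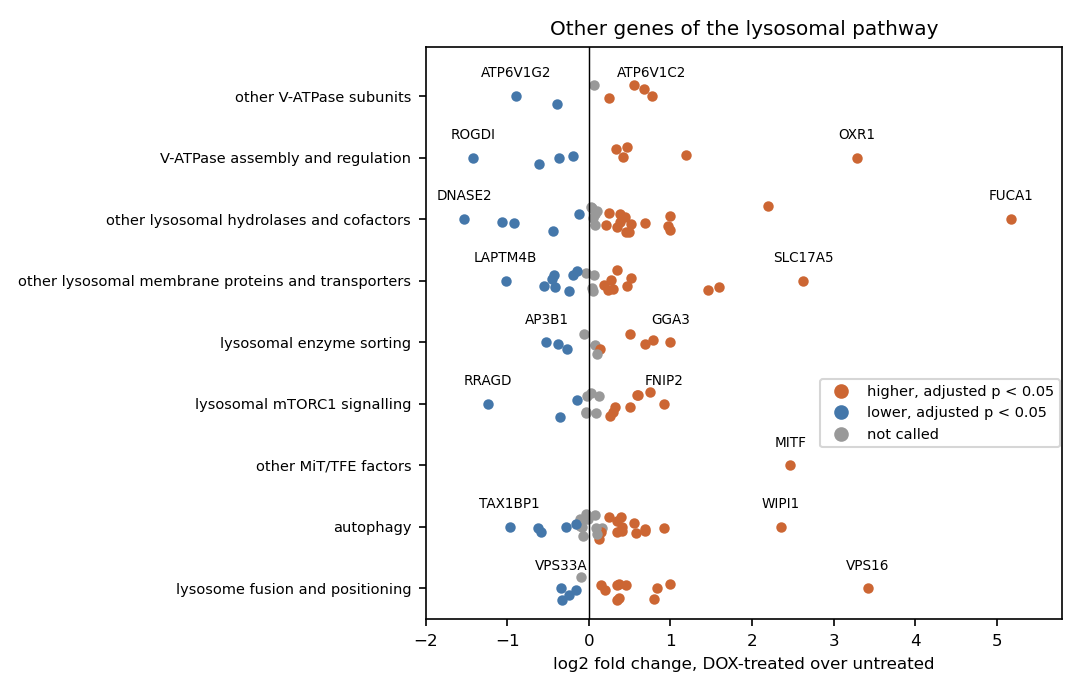
Log2 fold change of DOX-treated over untreated cells (x axis) for the 139 tested genes of 9 further lists of the lysosomal pathway, with the call at an adjusted p below 0.05 as colour and the most raised and most lowered called gene of each list named. Of the named genes, FUCA1, VPS16, OXR1, SLC17A5, MITF and WIPI1 lie beyond a log2FC of 2, and the lists hold genes on both sides of 0 except that of the MiT/TFE factors, with MITF alone.

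For the sorting of enzymes to the lysosome, 5 of 11 genes were higher and 3 were lower, led by the adaptor GGA3 (log2FC 1.0) and by AP3B1 (-0.52), a subunit of the AP-3 complex. For signalling of mTORC1, the nutrient-sensing kinase complex that acts on the lysosome surface and holds TFEB in the cytosol, 8 of 17 were higher and 3 were lower. The folliculin partner FNIP2 rose from 17.0 ± 2.19 to 32.2 ± 3.03 CPM (SD, n = 4 each; log2FC 0.92), and the Rag GTPase gene RRAGD fell from 123 ± 5.73 to 52.1 ± 2.11 CPM (log2FC -1.24). Of 30 tested autophagy genes, 14 were higher and 5 were lower, with a median log2FC of 0.11. WIPI1, which binds the lipid of forming autophagosomes, rose from 2.68 ± 0.210 to 13.7 ± 0.877 CPM (log2FC 2.35), and the autophagy receptor TAX1BP1 fell from 137 ± 5.48 to 70.1 ± 3.26 CPM (log2FC -0.97; SD, n = 4 each). WIPI1 shares 24.3% of its exonic bases with ARSG on the opposite strand, at 14.5 and 13.7 CPM. Of 16 tested genes for fusion and positioning of lysosomes, 11 were higher and 4 were lower, with a median of 0.35. VPS16 and VPS33A, which encode subunits of the same tethering complexes, went in opposite directions. VPS16 rose from 36.9 ± 2.83 to 396 ± 33.9 CPM (SD, n = 4 each; log2FC 3.42), and VPS33A fell from 32.5 ± 0.720 to 25.7 ± 0.952 CPM (log2FC -0.34). VPS16 shares 16.6% of its exonic bases with PTPRA on the same strand, which averaged 89.0 and 378 CPM, and how RSEM divided their reads was not tested.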

How the data were processed

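Libraries of D283-OMO cells, 4 without and 4 with DOX for 72 h, were analysed. The authors used Trim Galore for trimming, STAR for alignment to GRCh38 (GENCODE release 32) and RSEM for quantification, and deposited RSEM's expected counts without normalization. The study's methods name a stranded mRNA library kit (TruSeq Stranded). Versions and strand setting of the counting are not given in the sources used here. RSEM divides reads that match several genes, so that values of overlapping genes are uncertain.

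Expected counts were rounded. A gene was tested where at least 4 of the 8 libraries exceeded 1 CPM, with edgeR 4.0.16 (R 4.3.3; TMM, quasi-likelihood test, no covariates, Benjamini-Hochberg adjustment over all 15222 genes tested). The standard error of a log2FC was derived from the F statistic. CPM are scaled by TMM factors. Symbols, coordinates, exon overlaps and transcript lengths come from GENCODE 29 (GRCh38), and promoter windows from RefSeq. Levels per kb use the longest spliced coding transcript. Python 3.11.15 was used for tables and figures. The fits were tested on simulated data, in which known changes were planted in a small share of the genes, as many up as down. How the fits handle a broad shift in composition was not tested by this.

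Groups were taken from the labels. The members and lists were chosen with earlier results of these data known. Values per library are given for members with an absolute log2FC of at least 1, for TFEB and TFE3, and for the highest and lowest log2FC in each role. From each further list, the called genes with the largest rise and the largest fall are named, with MITF and TFEC, and other genes named were chosen after their values were seen. Alternatives were DESeq2 size factors, library size only, a likelihood ratio test in edgeR, the Wald test in DESeq2 1.42.0, other filters, a replicate block and the removal of each replicate by itself, in which the same genes were tested. The floor of 3 counts covers counting error only. P-values rest on the spread between replicates, with a biological coefficient of variation of 0.0745. Reads, transcript-level values and proteins were not analysed here.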

Additional observations from a re-analysis of the deposited data

Results flagged for a closer look

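ATP6V1A in untreated replicate 3 stood at 113 CPM, apart from the other 3 untreated libraries, which gave between 134 and 137 CPM. The gap was 0.861 of the range of the group, above Dixon's 95% critical value for 4 samples. Of 92 groups examined, the 2 conditions of each of the 46 members, 1 was marked in this way, where chance alone gives about 4.6. The call of ATP6V1A as higher held whichever replicate was left out, its log2FC ranging from 0.18 to 0.27.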

How the results depend on the processing

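With library sizes not corrected for composition, 35 members were called higher and 2 lower, against 32 and 7 with TMM. The median log2FC of the members was 0.50, while that of all genes tested moved from 0.01 to 0.14. The calls of all genes tested moved likewise, with more higher and fewer lower than with TMM. In that setting SCARB2 (0.11) and HEXA (0.04) turned positive without a call. LAMP2, CTSF, CTSH, GLB1 and GUSB lost the call as lower (adjusted p between 0.101 and 0.317), while GLA and PPT1 kept it in every alternative run. CD63, CTSD and ATP6V1E1 became called higher. Without a filter on low counts, 2 members passed the study's thresholds, CTSS being added (log2FC 2.16, SE 0.41, adjusted p = 6.07e-05). With each replicate left out in turn, the median log2FC of the members lay between 0.36 and 0.44, the latter without DOX-treated replicate 2. Members called higher numbered from 32 to 35 and genes of the further lists called higher from 67 to 90 over all alternatives. CTSD and ATP6V1E1 were called higher under other alternatives as well, and HEXA was called lower without untreated replicate 1. Of 675 alternative values of the 45 tested members, 658 kept direction and call, 5 lost the call, 10 gained it and 2 turned. All 300 alternative values of 20 other named genes kept both.

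Same-numbered replicates did not deviate together throughout (r = 0.200, 0.182, 0.314 and -0.240), and pairs with different numbers gave r from -0.378 to 0.465. The labels give only a replicate number, and these correlations do not settle whether the cultures were paired. With the replicate block, 33 members were called higher and 7 lower, CTSD being added (log2FC 0.15, adjusted p = 0.0341). Not every library correlated best with its own number. Depth limits CTSS, with between 2 and 7 counts in untreated libraries, and TFEC.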

Other observations

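The inhibitors of cathepsins were examined after the values of the cathepsins had been seen, as a list of 10 cystatin and serpin genes. Of these, 3 passed the filter and all 3 were higher with DOX, where 38.5% of all genes tested were higher. CST3, which encodes the secreted cystatin C, gave 20.7, 22.3, 27.6 and 23.2 CPM in untreated and 61.8, 57.1, 67.9 and 74.4 CPM in DOX-treated libraries (edgeR log2FC 1.48, SE 0.10, adjusted p = 6.4e-08). SERPINB6 (log2FC 0.73) and CSTB (0.29), which encodes the intracellular cystatin B, were higher with smaller differences, and the libraries of CSTB overlapped between the groups. CST1 and CST4 had 0 counts in every library.

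The 5 members on chromosome 8, CTSB, ASAH1, ATP6V1B2, ATP6V1C1 and ATP6V1H, were all higher. Among the 542 genes tested on this chromosome 43.7% were higher, with a median log2FC of 0.04. The members on chromosome 17 (GAA, GRN and ATP6V0A1) and chromosome 16 (ATP6V0C and ATP6V0D1) were all higher as well. On these chromosomes 34.8% and 30.7% of the genes tested were higher. Chromosomes 1, 3, 7, 11 and X held members called in both directions.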
